A study of Mus musculus with 12 samples.

Results

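The Zfp zinc finger genes examined were those named Zfp followed only by digits. They were taken from 346 gene IDs so named, with Zfp36 left out, among 37991 gene IDs. The name comes from sequence and not from a shared task, and it covers transcriptional repressors, nucleic acid binding proteins and proteins of unknown function. A gene was kept when it had at least 300 reads in every one of the 12 libraries, which left 221 genes, here called members. Members were thus selected on their name and read counts, with earlier results of these data known. The rule itself did not use the comparison of the groups. The floor also removes a gene that is low in 1 group only, so counts over the members describe genes read well in both groups. Of the other 125 Zfp IDs, 107 were tested across all genes and 18 were too low to be tested. The member just inside the floor was Zfp768, with a minimum of 300 reads, followed by Zfp759 with 305. Zfp950 and Zfp449 lay just outside it, each with a minimum of 289.

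Poly(A) RNA was sequenced from hippocampi of 12 C57BL/6N mice aged 6 to 7 months, bred from heterozygous parents, of which 6 were wild type and 6 Gadd45a-/-. All 12 went through the passive avoidance (PA) test, in which an animal learns to stay away from a compartment where it received a shock, and were killed 1 h later, so no untrained group enters these comparisons. In the Gadd45a-/- allele the first 3 exons are replaced by a neomycin resistance cassette driven by the PGK promoter, while the last exon remains. The libraries held 44594261 to 55540601 reads on genes.

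Whole-gene counts do not separate the deleted exons from the one that remains and so cannot check the deletion. Read counts were scaled to library size, adjusted by a normalization factor (CPM, per 1000000 reads). On that scale Gadd45a stood at 2.58 ± 0.481 under the label Wildtype and at 21.4 ± 1.07 under the label Gadd45a-KO (SD, n = 6 each). Reads on the targeted gene were thus higher under the label of its deletion, and their source within the gene was not tested. "Gadd45a-KO" below means the libraries so labelled. All 9 markers of hippocampal excitatory neurons were read in every library, with a summed level of 8122 to 8399 CPM in Wildtype and 7479 to 8923 CPM in Gadd45a-KO. Of 7 thalamic markers, 5 had an unadjusted p under 0.05 in edgeR's quasi-likelihood test, all of them higher in Gadd45a-KO, and 0 passed 1% FDR. Their summed level was 130 to 178 CPM in Wildtype and 139 to 497 CPM in Gadd45a-KO, with replicates 2 and 3 labelled Gadd45a-KO at 333 and 497 CPM, and none of the markers was at 0. All 6 oligodendrocyte markers likewise had an unadjusted p under 0.05 and were higher, with 0 at 1% FDR, summed levels of 2317 to 3679 against 3005 to 7311 CPM and none at 0. In tissue libraries, fewer cells of a type and less RNA per cell cannot be told apart.

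The common building block of these proteins is the C2H2 zinc finger, a short fold in which a pair of cysteines and a pair of histidines hold a zinc ion. Fingers are strung in arrays, usually joined by a short conserved linker, and each finger can read a few bases of DNA. Many of the proteins also carry a KRAB box, which recruits the co-repressor Trim28 and, through it, the histone methyltransferase Setdb1 and heterochromatin proteins. KRAB zinc finger proteins are best known for silencing transposable elements and for protecting genomic imprints.

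The family trait can be read in the DNA that encodes the linker. The stretches below come from members described further on, each located within 1 exon on the minus strand of NCBIM37. Where the linker recurs in a gene, 1 of its most frequent stretches is printed. They are shown because the same peptide is written in different codons from gene to gene, a difference that short reads can carry. Capitals mark the codons of the linker, and the lower-case bases are the codons on each side of it. The positions are chr9:122762007-122762027 for Zfp445, chr7:13396141-13396161 for Zfp329, chr13:21611969-21611989 for Zfp192, chr9:20240915-20240935 for Zfp26 and chr17:33471530-33471550 for Zfp81.
Zfp445: catACAGGGGAGAAACCGtac
Zfp329: cacACAGGTGAGAAGCCTtat
Zfp192: cacACCGGGGAGAAGCCCtat
Zfp26: cacACAGGAGAGAAACCAtat
Zfp81: cacACTGGAGAAAAACCCtat
Within Zfp26, 11 linkers of this kind were written in 11 different stretches, and within Zfp329 7 linkers in 7. Repeats matter here because reads of 51 bases that aligned to several places were not counted by the authors. Of the 220 members with an annotated coding sequence, 134 shared no 51-base window with another gene's coding transcripts and 10 shared over 10% of theirs. Zfp932 shared the most, with 37.6%, and its counts, like those of the other 9, are uncertain.

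Of these 220 members, 215 held at least 1 C2H2 finger in the translated sequence, with a median of 10 and up to 36 fingers. Zfp259, Zfp330, Zfp365, Zfp703 and Zfp839 held none by the pattern searched. A KRAB box was found in 98 members and in 25 of 9938 other genes in the same range of level. The median of the members' mean level over the libraries was 20.6 CPM, with a range from 7.00 to 807 CPM. Per kilobase of exon the members' median level was 5.13 CPM. The background was 10084 other genes that passed the same floor of reads and whose mean log2 CPM fell within the members' range. They are called genes of similar CPM below. Their medians were 41.0 CPM and 10.3 CPM per kilobase, so they shared the members' range but were not matched in level. Over all genes tested, which include those under the floor, the medians were 17.4 CPM and 4.94 CPM per kilobase. Per kilobase of exon, Zfp238 had the highest level, at 158 CPM, followed by Zfp365 at 74.6 CPM and Zfp706 at 50.5 CPM.

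None of the 4 most abundant members was past 1% FDR in edgeR's test, and 1 of them, Zfp106, was with DESeq2. Zfp238, named Zbtb18 in the current RefSeq list, encodes a repressor needed in developing cortical neurons. It ranged over 752, 802 and 881 CPM (lowest, median, highest) in Wildtype and over 767, 783 and 894 CPM in Gadd45a-KO. Its groups overlapped almost fully, with a log2 fold change of -0.02 (SE 0.05, adjusted p = 0.937, edgeR). Zfp365, whose product binds the psychiatric risk protein Disc1, had 393 ± 35.3 CPM in Wildtype and 384 ± 34.2 CPM in Gadd45a-KO (SD, n = 6 each). Zfp706, which encodes a small protein with a single finger, had 220 ± 4.53 and 226 ± 11.3 CPM (SD, n = 6 each). Zfp106, an RNA-binding protein needed by motor neurons, had 289, 329 and 362 CPM in Wildtype and 249, 272 and 307 CPM in Gadd45a-KO, with 4 of 6 Gadd45a-KO libraries below every Wildtype library. Its log2 fold change of -0.25 (SE 0.06) gave an adjusted p of 0.0286 in edgeR's quasi-likelihood test, past 5% but not past 1% FDR, while DESeq2 gave an adjusted p of 0.00456.

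Among the members, 11 were lower in Gadd45a-KO at 1% FDR by edgeR's quasi-likelihood test and 0 were higher, with p-values adjusted over all 16399 genes tested. The 11 make 4.98% of the members. Of all genes tested, 2.62% were lower and 0.0244% higher, and of the 10084 other genes of similar mean CPM, 3.05% were lower and 0.00992% higher. The 4 higher genes were Gadd45a, Dnahc6, Tacr1 and Suclg1, all on chromosome 6 and none of them a member, and the last of them is the 1 among genes of similar CPM. These 4 were looked up after their values were seen. At 5% FDR, 20 members (9.05%) were lower and 0 higher, with 4.43% of all genes and 5.37% of genes of similar CPM lower. The other 210 members were not past 1% FDR, and 44 members in all had an unadjusted p under 0.05, of which 40 were lower (18.1%) and 4 higher (1.81%), against 11.1% and 3.71% of genes of similar CPM. With DESeq2 17 members (7.69%) were lower and 0 higher, with 4.93% of genes of similar CPM lower. The plot of log2 fold change against level shows Zfp445, Zfp369 and Zfp398 well below the band that holds the rest. The number of calls depended on single libraries. It was 5 without Wildtype replicate 3, 5 or 6 or without Gadd45a-KO replicate 1, 6 without Gadd45a-KO replicate 6, and 7 without Gadd45a-KO replicate 2, 3 or 4, against 239 to 311 of all genes tested in place of 430. Without the 2 Gadd45a-KO libraries with the most thalamic marker reads 4 members were lower, Zfp445, Zfp329, Zfp369 and Zfp192, or 1.81% of members against 1.24% of genes of similar CPM. That fit also had fewer libraries.

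**Figure D1:**
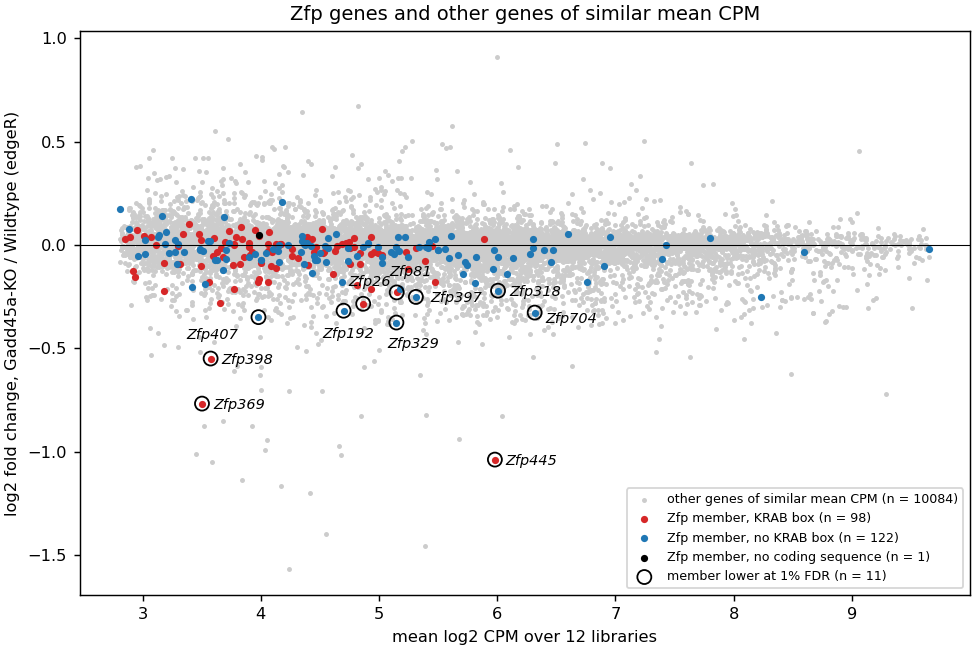
Log2 fold change (Gadd45a-KO over Wildtype, edgeR) against mean log2 CPM over 12 libraries, with members of the Zfp family in colour by KRAB box and 10084 other genes of similar mean CPM in grey. Circles mark the 11 members lower at 1% FDR, from -1.04 for Zfp445 to -0.22 for Zfp318, and the highest value of a member is 0.22.

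Zfp445 (ENSMUSG00000047036), a KRAB member, had the largest difference of all members. It is known to protect genomic imprints, acting together with Zfp57. The gene lies on chromosome 9 (NCBIM37, 122761032 to 122771246, minus strand), and its annotated protein holds 12 fingers. Its Wildtype libraries had 84.6, 89.5 and 102 CPM (lowest, median, highest), and its Gadd45a-KO libraries 41.2, 42.4 and 52.9 CPM. The groups were far apart, with 90.6 ± 5.98 CPM against 44.2 ± 4.50 CPM (SD, n = 6 each). The log2 fold change was -1.04 (SE 0.06, adjusted p = 2.00e-07, edgeR), a level 51.3% lower. Zfp57, looked up for its known role and not by the naming rule, had 8.07 ± 0.943 and 7.26 ± 0.747 CPM (SD, n = 6 each), with a log2 fold change of -0.15 (SE 0.09, adjusted p = 0.504, edgeR).

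Zfp369 (ENSMUSG00000021514) encodes NRIF2, a protein that binds the neurotrophin receptor p75NTR. It lies on chromosome 13 (65380122 to 65405529, plus strand) and holds a KRAB box and 5 fingers. It had 12.6, 14.4 and 18.9 CPM in Wildtype and 7.85, 8.78 and 9.67 CPM in Gadd45a-KO. No Gadd45a-KO library reached the lowest Wildtype value, and the log2 fold change was -0.77 (SE 0.09, adjusted p = 0.000143, edgeR). Its close relative Zfp110 encodes the related protein NRIF1 and was looked up for that reason. It had 16.4 ± 0.843 CPM in Wildtype and 17.1 ± 0.661 CPM in Gadd45a-KO (SD, n = 6 each; log2 fold change 0.06, SE 0.04, adjusted p = 0.619, edgeR).

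Zfp398 is 1 of 7 KRAB members on the chromosome of Gadd45a, and of these 7 the 1 that was lower (chromosome 6, 47785660 to 47818256, plus strand), and its human counterpart is known to bind estrogen receptor alpha. It had 13.2, 14.1 and 16.3 CPM in Wildtype against 7.98, 10.03 and 12.3 CPM in Gadd45a-KO, with no overlap. The log2 fold change was -0.55 (SE 0.10, adjusted p = 0.0032, edgeR). Both other KRAB members among the 11 had smaller differences. Zfp26 (22 fingers) had 29.1, 32.2 and 34.8 CPM in Wildtype and 24.1, 26.9 and 28.1 CPM in Gadd45a-KO, without overlap (log2 fold change -0.28, SE 0.05, adjusted p = 0.00271, edgeR). Zfp81 (11 fingers) had 34.6, 39.1 and 40.2 CPM in Wildtype and 30.4, 33.0 and 34.6 CPM in Gadd45a-KO, where 5 of 6 libraries lay below every Wildtype library. Its log2 fold change was -0.23 (SE 0.04, adjusted p = 0.00515, edgeR).

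By the search used, no KRAB box was found in the annotated proteins of the other 6 lower members. The search asked for at least 13 of 40 residues of a consensus, so a box further from it would be missed. Zfp192, with 8, came closest among these 6. Zfp329 (ENSMUSG00000057894, chromosome 7, 13390326 to 13404207, minus strand), with 12 fingers, had 40.3 ± 1.54 CPM in Wildtype and 31.1 ± 1.63 CPM in Gadd45a-KO (SD, n = 6 each). The groups did not overlap, and the log2 fold change was -0.37 (SE 0.04, adjusted p = 7.71e-05, edgeR). Zfp192 and Zfp397 encode proteins with a SCAN domain, through which zinc finger proteins pair with one another. Zfp192, now named Zkscan8 in RefSeq, lies on chromosome 13 (21605091 to 21622989, minus strand). It had 27.1, 29.3 and 30.4 CPM in Wildtype and 21.6, 23.2 and 24.7 CPM in Gadd45a-KO (log2 fold change -0.32, SE 0.04, adjusted p = 0.000492, edgeR). Zfp397 had 40.04, 43.2 and 47.7 CPM in Wildtype and 34.8, 36.1 and 39.2 CPM in Gadd45a-KO (log2 fold change -0.25, SE 0.05, adjusted p = 0.0044, edgeR). In both genes every Gadd45a-KO library lay below every Wildtype library.

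The remaining lower members had transcripts of over 6000 nt. Zfp407, known as a regulator of glucose transporter expression in fat cells, is annotated with 2246 residues and 22 fingers. It had 16.1, 17.5 and 19.6 CPM in Wildtype and 12.5, 13.97 and 15.7 CPM in Gadd45a-KO, without overlap (log2 fold change -0.35, SE 0.07, adjusted p = 0.00559, edgeR). Zfp318, which in B cells allows the IgD form of the immunoglobulin transcript to be made, had 65.8, 68.1 and 74.4 CPM against 56.5, 59.1 and 64.6 CPM, also without overlap (log2 fold change -0.22, SE 0.04, adjusted p = 0.00559, edgeR). Zfp704, with a transcript of 13843 nt, had 76.5, 86.6 and 105 CPM in Wildtype and 66.6, 71.8 and 78.3 CPM in Gadd45a-KO. Here 1 Gadd45a-KO library lay within the Wildtype range (log2 fold change -0.33, SE 0.07, adjusted p = 0.00955, edgeR). Zfp704 lost its call in 10 of 12 fits that left out 1 library, Zfp318 in 9, and Zfp407, Zfp397 and Zfp81 in 8 each. Zfp398 lost it in 3, Zfp26 in 1, and the other 4 in none.

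**Figure D2:**
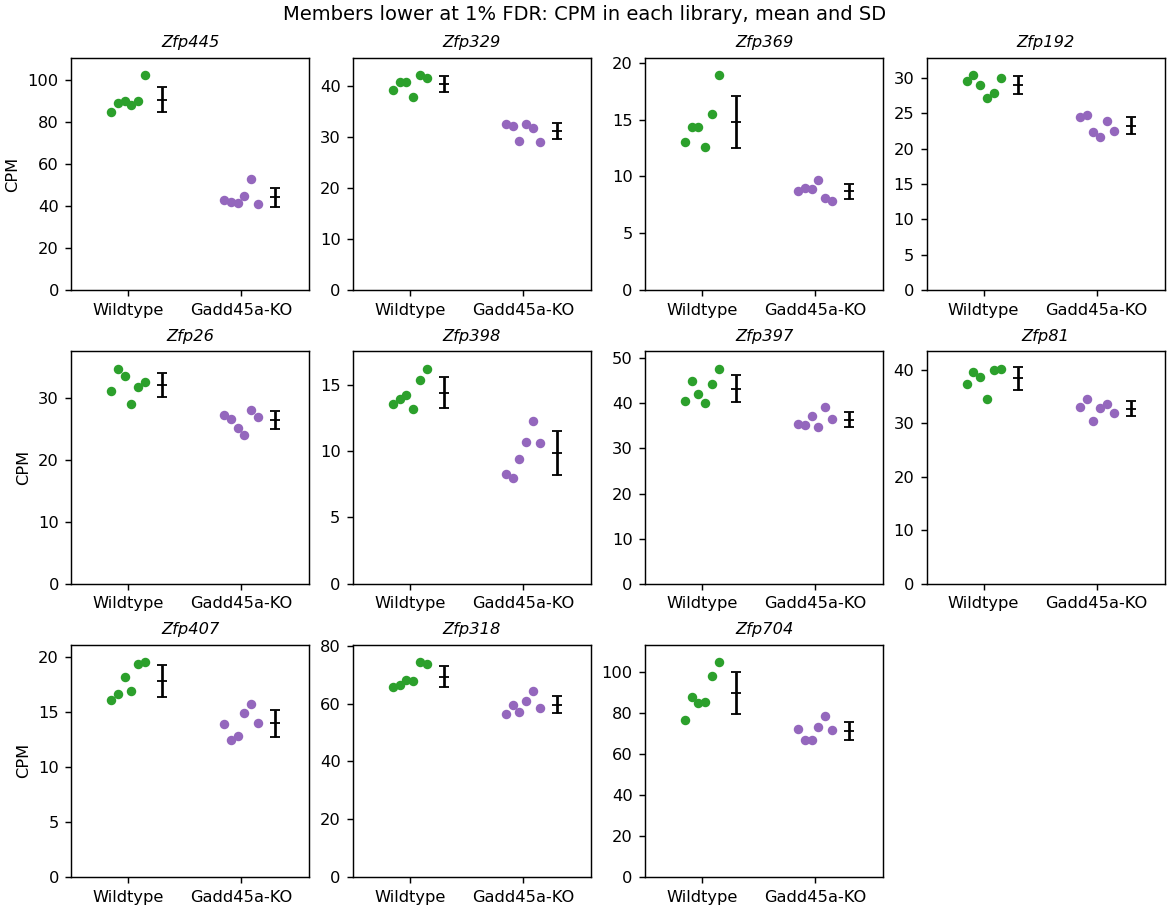
CPM of the 11 members lower at 1% FDR in each of the 6 Wildtype and 6 Gadd45a-KO libraries, with the mean and SD beside the points and each axis starting at 0. In 9 of the 11 panels every Gadd45a-KO library lies below every Wildtype library, and the exceptions are Zfp81 and Zfp704.

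Every Gadd45a-KO library lay below the Wildtype mean in all 11. Counting by overlap alone, 13 members (5.88%) had every Gadd45a-KO library below every Wildtype library and 0 had the opposite order. The background share for the first order was 3.57% among genes of similar CPM. The 13 are 9 of the called members and Zfp148, Zfp281, Zfp623 and Zfp667, 4 members looked up after their values were seen. Zfp148, which binds GC-rich promoters, had 116 ± 5.23 CPM in Wildtype and 102 ± 4.14 CPM in Gadd45a-KO (SD, n = 6 each; log2 fold change -0.18, SE 0.04, adjusted p = 0.0106, edgeR).

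The distribution of the members was narrow and centred slightly below 0. The median log2 fold change of the members was -0.03, and 149 of them (67.4%) had a negative value. For the 210 not called, the median was -0.02 and 65.7% were negative. Among genes of similar CPM the median was -0.00 and 50.7% were negative, and over all genes tested the median was 0.00 and 48.2% were negative. Within 0.1 of 0 on the log2 scale lay 79.2% of members and 78.9% of genes of similar CPM. Zfp799 and Zfp382, both with KRAB boxes, had the lowest log2 fold changes without a call beside Zfp106. Zfp799 was at -0.28 (SE 0.07, adjusted p = 0.0218, edgeR; 0.0028 with DESeq2, and 0.00736 in edgeR without Wildtype replicate 4) and Zfp382 at -0.22 (SE 0.10, adjusted p = 0.318, edgeR). At the other end, Zfp423, a regulator of cerebellar development and of fat cell commitment, was at 0.22 (SE 0.14, adjusted p = 0.535, edgeR). It had 8.01, 9.81 and 11.5 CPM in Wildtype and 9.29, 10.5 and 16.3 CPM in Gadd45a-KO, so its groups overlapped. The highest values, 13.7 and 16.3 CPM, were in Gadd45a-KO replicates 2 and 3, the libraries highest in thalamic markers. Without replicate 3 the log2 fold change was 0.11, and without both it was -0.00. These libraries hold the highest values of Zfp423, so leaving them out lowers the difference whatever its source. A link to the thalamic markers was not tested. Zfp367 (0.21, adjusted p = 0.283) and Zfp768 (0.18, adjusted p = 0.284, both edgeR) were next.

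Library by library, the median deviation of the members from each gene's mean over the 12 libraries was small. It ran from -0.02 to 0.05 (log2 CPM) in Wildtype and from -0.05 to 0.00 in Gadd45a-KO, and the ranges overlapped. Wildtype replicate 4, at -0.02, was the lowest of its group, and Gadd45a-KO replicate 3, at -0.05, was the lowest of all. The latter also had the highest summed thalamic markers, and the part of these markers in the members' levels was not tested. Medians over the genes of similar CPM stayed between -0.02 and 0.01.

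**Figure D3:**
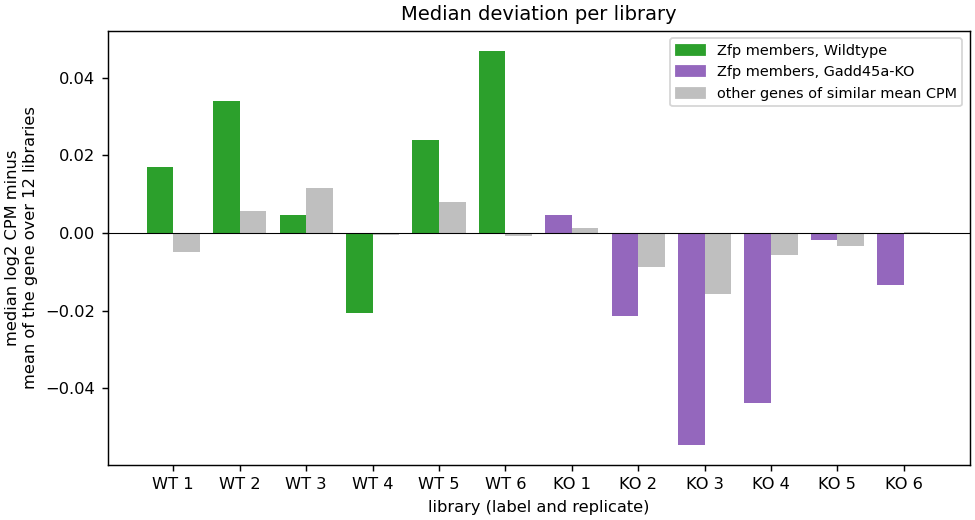
Median over genes of log2 CPM minus the gene's mean over 12 libraries, for Zfp members (green Wildtype, purple Gadd45a-KO) and for other genes of similar mean CPM (grey), 1 pair of bars per library. Wildtype bars of the members run from -0.02 to 0.05 and Gadd45a-KO bars from -0.05 to 0.00.

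The lower members were mostly genes with long transcripts, as were the lower genes in the background. Of 34 members whose longest annotated transcript is over 6000 nt, 7 were lower (20.6%), and of 1500 genes of similar CPM and that length 15.4% were lower. The median log2 fold change was -0.08 for these members and -0.09 for the background. Among 187 members up to 6000 nt, 4 were lower (2.14%), namely Zfp445, Zfp369, Zfp398 and Zfp397, against 76 of 8578 (0.886%) in the background. Zfp445, Zfp369 and Zfp398, with the 3 largest differences, had annotated transcripts of 2961, 2911 and 3656 nt. For Zfp445 the annotation holds the coding sequence and no 3′UTR, as for 16 members in all, so its full transcript length is not known here. Members up to 6000 nt had a median of -0.02 with 64.2% negative, and the background of that length had 0.01 with 46.1% negative. With an offset for transcript length in the fit, 5 members were lower, which were Zfp445, Zfp329, Zfp369, Zfp398 and Zfp397. They made 2.26% of the members, against 1.48% of genes of similar CPM in the same fit. The offset used annotated lengths and so left out any 3′UTR past the annotated end. The paper reported such extensions in most of its top down-regulated genes. Called members had a median length of 6727 nt and the others 3597 nt.

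**Figure D4:**
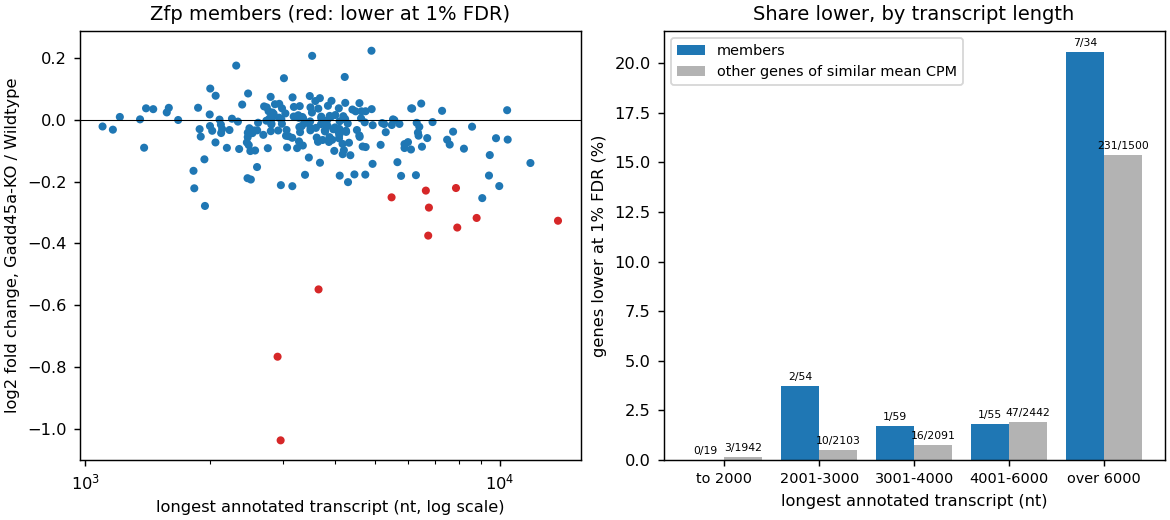
Left, log2 fold change of each member against the length of its longest annotated transcript (nt, log scale), with the 11 lower members in red. Right, percent of genes lower at 1% FDR by length, for members (blue) and other genes of similar mean CPM (grey), with the number of lower genes over all genes on each bar. The share is highest over 6000 nt, at 20.6% and 15.4%.

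Base composition differed along with the KRAB box. KRAB members had a median GC content of 44.1% and the others 50.3%. Of the 98 KRAB members 5 were lower (5.10%), with a median log2 fold change of -0.03 and 64 negative values, and of the 122 others 6 were lower (4.92%), with a median of -0.03 and 85 negative values. The counts in both classes were thus close to each other, with the classes set by a search that can miss divergent boxes. Of 55 members up to 42% GC, 5 were lower (9.09%), against 9.07% of background genes in that range. Between 45 and 48% GC, 3 of 26 were lower (11.5%) and 88.5% had negative values, against 4.21% and 52.1% in the background. Between 42 and 45% GC, 2 of 39 were lower (5.13%), against 8.14% in the background. Between 48 and 52% GC it was 1 of 47 (2.13%), against 0.965%. Of 54 members over 52% GC, 0 were lower, against 0.183% of the background.

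Many Zfp genes sit in tandem clusters, which is how the KRAB family expanded in mammals. When members whose starts were at most 1 Mb apart were joined, 19 groups of at least 3 held 106 members, of which 5 were lower, while 6 of the 115 members outside were lower. No group held more than 1 lower member. The largest, on chromosome 17 between 21145905 and 23736454, had 12 members, all with a KRAB box, of which 6 had negative values, and a median log2 fold change of -0.00. On chromosome 9, between 19445668 and 20399638, all 6 members had negative values, with a median of -0.13. Of these 6, Zfp26 was called, and Zfp266, looked up after its values were seen, had a log2 fold change of -0.18 (SE 0.04, adjusted p = 0.0147, edgeR). Zfp329 lay in a group of 6 on chromosome 7 whose median was 0.00. On chromosome 6, Zfp398 lay in a group of 8 with a median of 0.01, which were the members within 20 Mb of Gadd45a. Of the 15 members on that chromosome, those 8 included 1 lower gene. The log2 fold change of Zfp398, -0.55, was the lowest in its group, and the highest was 0.07, that of Zfp212, looked up in the same way.

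The partners of KRAB proteins were examined from a list of 28 co-repressor and heterochromatin genes, of which 27 were tested. At 1% FDR 1 was lower and 0 were higher (edgeR), with 2.62% of all genes tested lower. At an unadjusted p under 0.05 2 were lower and 0 higher, with 9.35% of all genes tested lower and 4.34% higher. The median log2 fold change of the list was -0.02. Trim28 had 135 ± 6.10 CPM in Wildtype and 135 ± 8.55 CPM in Gadd45a-KO (SD, n = 6 each; log2 fold change -0.01, SE 0.04, adjusted p = 0.958, edgeR). Setdb1 had 71.5 ± 2.81 and 69.8 ± 4.35 CPM (SD, n = 6 each; log2 fold change -0.03, SE 0.04, adjusted p = 0.824, edgeR). The lower gene was Cbx5, which encodes the heterochromatin protein HP1 alpha. Its Wildtype libraries had 212, 226 and 244 CPM and its Gadd45a-KO libraries 182, 191 and 206 CPM, without overlap (log2 fold change -0.26, SE 0.04, adjusted p = 0.00242, edgeR). Its transcript has 8803 nt, in the class where 15.4% of genes of similar CPM were lower. Cbx5 missed 1% FDR with the length offset (-0.15, adjusted p = 0.0222), without Wildtype replicate 5 (adjusted p = 0.0102), without Gadd45a-KO replicate 6 (adjusted p = 0.011) and without the 2 libraries highest in thalamic markers (adjusted p = 0.0196, all edgeR).

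Zfp genes under the floor and zinc finger genes with other name stems were examined beside the members. Of the 107 Zfp genes under the floor, 2 were lower at 1% FDR (1.87%, against 2.62% of all genes tested) and 0 higher. Their median log2 fold change was -0.04. At an unadjusted p under 0.05, 21 were lower (19.6%) and 2 higher (1.87%), against 9.35% and 4.34% of all genes tested (edgeR). Zfp871, with a KRAB box and 15 fingers, had 5.52, 6.72 and 9.11 CPM in Wildtype and 2.14, 2.43 and 3.21 CPM in Gadd45a-KO. These groups did not overlap, and the log2 fold change, -1.41 (SE 0.13, adjusted p = 2.20e-05, edgeR), was larger in size than that of any member. Zfp871 had 260 to 456 reads in Wildtype and 111 to 146 in Gadd45a-KO. Zfp950 had 402 to 474 and 289 to 324 reads, so that the floor of 300 left it out through Gadd45a-KO libraries (log2 fold change -0.46, SE 0.08, adjusted p = 0.00297, edgeR). Of 26 Zbtb genes, 1 was lower (3.85%), against 3.05% of genes of similar CPM. It was Zbtb20 (-0.43, SE 0.06, adjusted p = 0.00113, edgeR), a regulator of hippocampal CA1 neuron identity, and the median of the 26 was -0.01. Of 12 Zkscan and Zscan genes, 1 was lower (8.33%, against the same 3.05%). It was Zkscan16 (-1.57, SE 0.14, adjusted p = 1.61e-05, edgeR), with 32.9 CPM in Wildtype and 11.1 CPM in Gadd45a-KO, and the median of the 12 was -0.03. Both were named after their values were seen. Zfp36, whose product binds AU-rich mRNA with fingers of another type, is left out by the naming rule. With 99 to 182 reads it also lay under the floor. It had 2.56 ± 0.257 and 2.89 ± 0.346 CPM (SD, n = 6 each; log2 fold change 0.18, SE 0.10, adjusted p = 0.458, edgeR).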

How the data were processed

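Poly(A) RNA from 6 Wildtype and 6 Gadd45a-KO hippocampi was sequenced by the authors (TruSeq Stranded mRNA, single reads of 51 bases), aligned to NCBIM37/mm9 with TopHat 1.4.1 and counted per gene on the reverse strand with htseq-count (HTSeq 0.5.4p3). The authors deposited whole-number read counts, unnormalized and unpooled. Lines without a gene (24.1 to 26.3% of each total) were left out.

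IDs were named from GENCODE M1 (Ensembl 65; authors: Ensembl 66), and 37205 matched. Fingers, linkers, KRAB boxes and 51-base windows were searched in its coding sequences, because RefSeq proteins were not used here. A finger was C, 2 to 4 residues, C, 12 residues, H, 3 to 5 residues, H. A KRAB box had at least 13 of 40 residues of a consensus of 106 Zfp genes. RefSeq's current symbol differed for 9 of 221 members.

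Counts were filtered with edgeR 4.0.16 (R 4.3.3), TMM-normalized and compared with its quasi-likelihood test at 1% FDR (Benjamini-Hochberg), after the study's threshold. CPM used TMM factors, and log2 CPM a prior count of 2. SE was obtained by dividing the absolute log2 fold change by the root of the F statistic. Libraries of 1 label differed beyond counting error (chi-square per degree of freedom 9.12 to 40.6, 30 pairs), so none was counted as a duplicate. On simulated data edgeR recovered 175 of 200 changed genes with 3 false among 16299. In another simulation counts shifted with transcript length while 0 genes were changed. The fit without an offset then called 1020 of 16399 genes falsely, and the fit with the length offset 0. Alternatives were DESeq2 1.42.0, RLE, filters, floors, 5% FDR, offsets for length and GC, the replicate block and leaving out libraries.

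Members and lists were chosen with earlier results of these data known. Named are members at 1% FDR, the 4 most abundant, the 3 lowest and 3 highest uncalled, 2 on each side of the floor, called Zfp genes under it, Trim28, Setdb1 and called co-repressors, Gadd45a and Zfp36. Genes named otherwise are said to be so in the text.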

Additional observations from a re-analysis of the deposited data

Results flagged for a closer look

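In 58 groups of 6 libraries, 1 group for each named gene and label, chance alone sets a library apart in about 1 in 20, or 2.90 groups, and 3 were found. For Zfp445, replicate 6 labelled Wildtype had 102 CPM, while the others had 84.6 to 89.9 CPM. For the same gene, replicate 5 labelled Gadd45a-KO had 52.9 CPM, while the others had 41.2 to 44.8 CPM. For Zfp238, replicate 1 labelled Gadd45a-KO had 894 CPM, while the others had 767 to 809 CPM. Leaving out either of the libraries set apart for Zfp445 did not change its call.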

How the results depend on the processing

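The number of members lower at 1% FDR, 11, was also 11 with RLE size factors, with no filter and with at least 10 counts in every library. It was 17 with DESeq2 (7.69% of members, against 4.93% of genes of similar CPM), 20 at 5% FDR (9.05% against 5.37%), 5 with the length offset (2.26% against 1.48%), 10 with the GC offset (4.52% against 2.43%) and 4 (1.81% against 1.24%) without the 2 Gadd45a-KO libraries highest in thalamic markers, an alternative chosen after seeing the data. In fits that left out 1 library it was 5 to 12 (2.26% to 5.43%, against 1.57% to 3.40% of genes of similar CPM). It was 5 without Wildtype replicate 3, 5 or 6 or Gadd45a-KO replicate 1. With 100 reads as the floor it was 13 of 292 genes (4.45%), and with a mean of 300 reads 12 of 240 (5.00%). With RefSeq symbols it was 10 of 219 (4.57%), and in these 3 settings 2.62% of all genes tested were lower. In each of these settings 0 members were higher. Zfp445, Zfp329 and Zfp369 kept their calls in every alternative set out at the start, and Zfp192 in every fit that left out 1 library. No value of a named gene reversed where it was called. Of 638 values of named genes under alternatives, 75 lost and 4 gained a call. The gains were Zfp106 with DESeq2 and with the replicate block (adjusted p = 0.00768), and Zfp799 with DESeq2 and without Wildtype replicate 4. The lower Zfp genes under the floor, 2, were 4 with DESeq2, 5 at 5% FDR and 1 (without Gadd45a-KO replicate 6) to 3 when 1 library was left out. The 1 lower co-repressor became 2 with DESeq2 and at 5% FDR, 0 with the length offset, with or without the block, and without the 2 thalamic-marker libraries, and when 1 library was left out 0 (without Wildtype replicate 5 or Gadd45a-KO replicate 6) to 2 (without Gadd45a-KO replicate 5). The 2 lower genes of the Zbtb, Zkscan and Zscan names became 5 with DESeq2 and at 5% FDR and 1 with the length offset.

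Same-numbered libraries did not deviate together in every pair (correlations -0.0761 to 0.262, 5 of 6 over 0.1). Their mean correlation was 0.14, against -0.0279 between Wildtype and Gadd45a-KO libraries of different number. The replicate numbers were not taken to pair the mice, and whether they mark a shared structure was not tested. With the replicate block 13 members were lower (5.88%, against 3.86% of genes of similar CPM). It was 6 with the block and length offset (2.71% against 1.71%) and 8 with the block and GC offset (3.62% against 2.41%). In the Zbtb, Zkscan and Zscan genes, 4 were lower with the block and 4 with the block and GC offset. Each library correlated best with its own number in 1 of 6 cases. The cause of these differences was not tested.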
